A study of Mus musculus with 10 samples.

Results

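The enzymes that move choline and methionine through the liver were measured as mRNA, as 9 genes chosen by symbol from the 17274 rows of the deposited expression table. They are Mat1a, Gnmt and Ahcy of the methionine cycle, Bhmt, Cbs and Chdh at its entry and exit, and Pemt, Chka and Pcyt1a of phosphatidylcholine synthesis. All 9 were in the table, and all 9 passed the filter on low values. The samples were 10 liver samples from wild-type mice, called livers here. All of these mice ate CDAHFD, a high-fat diet that lacks choline, supplies L-amino acids in defined amounts and is used to bring on nonalcoholic steatohepatitis. All were also injected intravenously with AAV, an adeno-associated virus used here to carry genes. The virus was control AAV for 5 samples and AAV encoding miR-181d-5p for 5 samples, and these groups are called control and miR-181d-5p livers. The sources used here do not give the strain, sex, age, time on diet, virus dose or promoter. Both groups ate the same diet, so no comparison with a choline-replete diet was made.

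In liver, methionine is turned into S-adenosylmethionine, the methyl donor of most methylation reactions, and the homocysteine that remains is either remethylated to methionine or drained into cysteine. Choline feeds this cycle after oxidation to betaine, whose methyl group remethylates homocysteine. Choline is also built into phosphatidylcholine, the main phospholipid of membranes and of secreted lipoproteins, and liver can make phosphatidylcholine without dietary choline by methylating phosphatidylethanolamine. A diet without choline therefore loads this network, and loss of phosphatidylcholine supply is a classical route to fatty liver.

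The groups differ by the microRNA, which belongs to the miR-181 family and recognises mRNAs by pairing of its seed (bases 2 to 8) with their 3' untranslated region. It is shown here, with the seed in capitals, because it defines the sites searched in the 9 genes (RefSeq, GRCm38.p6, chr8:84178759-84178781, reverse strand).
miR-181d-5p: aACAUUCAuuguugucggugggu
The longest annotated 3' untranslated region of each gene (GENCODE vM21, mm10) was searched for the 8mer TGAATGTA, the 7mer-m8 TGAATGT and the 7mer-A1 GAATGTA on the transcript strand. None of the 9 genes held 1 of these 3 matches, whereas 2702 of 11770 tested genes with such a region did (23%). The 6mer GAATGT, the weakest class of seed match, occurred once each in Chdh, Cbs and Ahcy. With the 6mer included, 3 of 9 genes had a match, against 35.5% of the tested genes. The 3 windows follow, from 5' to 3', with the 6mer in capitals.
Chdh: atctggagtaaGAATGTcttccgaagaggt
Cbs: acagaactgagGAATGTtagccaggaagga
Ahcy: tatgctatttaGAATGTtaacaaaggaagg
The Chdh match lies at chr14:30040419-30040424, in exon 8 of 8, and begins at base 3529 of 3637 of the region. The Cbs match lies on the reverse strand at chr17:31612994-31612999, in exon 17 of 17, at base 191 of 4296. The Ahcy match lies on the reverse strand at chr2:155059771-155059776, in exon 10 of 10, at base 673 of 1139. Whether these livers use the longest annotated region was not tested, and a match is a stretch of letters, not a shown site.

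Values are FPKM, reads scaled by gene length and library total, so levels of different genes depend on the lengths used. Those lengths were inferred from the FPKM, and 206 of them equal the annotation. For Cbs the inferred length was 2706 bases, below the 4296 bases of its searched 3' untranslated region. Orders and ratios between genes are therefore given for FPKM, and whether they hold for mRNA amounts was not tested. Read totals worked out from the FPKM were 18985912 to 20657019 per library, and the lowest read number behind a value of the 9 genes was 578, for Chka. The labels do not say whether each sample is from a separate mouse. If some share a mouse, the p-values reflect only the spread among these libraries, which may be technical. The group comparison used limma across the 12053 genes whose mean reached 0.5 FPKM, on log2(FPKM + 1), two-sided, with Benjamini-Hochberg adjustment. None of the 9 genes had an adjusted p under 0.05, nor did any gene in the table (0 of 12053, 0%; voom on recovered reads also called 0). At an unadjusted p under 0.05 there were again 0 of the 9 genes, against 14.7% of all tested genes (607 higher and 1161 lower; 347 and 1266 after scaling each liver to 1 common FPKM total, 997 and 942 with quantile normalization). Without miR-181d-5p liver 5 it was 3 of 9 (Bhmt, Cbs and Gnmt), against 14.3% of all tested genes in that fit, and without control liver 5 it was 2 of 9 (Gnmt and Pemt), against 21.5%. It was 1 of 9 (Cbs) without control liver 1, control liver 4 or miR-181d-5p liver 2, against 16%, 12.5% and 10.5%. With all 10 livers it was 1 of 9 with array weights (Pemt), with voom and quality weights (Pemt) and with the replicate block (Cbs), against 16.1%, 16.2% and 10.1%. The 9 log2 changes ran from -0.18 to 0.33 with a median of 0.04, and 6 of 9 lay above 0, against 45.5% of all tested genes, whose median was -0.02. With quantile normalization the median of the 9 genes (0.005) was below that of all tested genes (0.013). Without miR-181d-5p liver 4, 4 of 9 lay above 0, and without control liver 2, 7 of 9 did. In each of the 9 genes the groups overlapped; 2.47% of tested genes had groups that did not.

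The labelled tissue was checked against its markers. Hepatocyte markers summed to 43813 to 51439 FPKM in control livers and 46011 to 50269 in miR-181d-5p livers, and 8 of 9 measured hepatocyte markers had a log2 change above 0 (median 0.06). Of the stellate cell and fibroblast markers 0 of 10 lay above 0 (median -0.34), with sums of 504 to 689.8 against 369 to 493 FPKM. Of the cholangiocyte markers 0 of 6 tested lay above 0 (median -0.62), with sums of 269 to 504 against 111 to 367 FPKM. Macrophage markers were above 0 in 3 of 10 (median -0.19), with sums of 2075 to 2881 against 1555 to 2643 FPKM. A single gene gave most of the cholangiocyte sums (means of 329 FPKM in control and 204 FPKM in miR-181d-5p livers). Another gave the largest part of the macrophage sums (1456 and 1203 FPKM), so these sums largely follow those genes. Endothelial markers split 4 to 4, and lymphocyte markers had 2 of 5 above 0. No marker was at 0 in any liver, and no marker passed. The smallest p of each list belonged to Ttr, Adgre1, Col1a2, Lyve1, Sox9 and Cd3d, with log2 changes of 0.23, -0.36, -0.50, -0.36, -0.67 and -0.32 and limma adjusted p from 0.221 to 0.311. In bulk tissue, fewer cells of a type and less RNA per cell cannot be told apart, and the part of cell makeup in the values of the 9 enzymes was not tested.

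In FPKM levels, Bhmt stood highest with a mean of 833 FPKM over 10 livers, then Mat1a (666), Gnmt (385), Ahcy (234), Pemt (208), Cbs (86.4), Chdh (37.9), Pcyt1a (21.2) and Chka (6.87). Bhmt exceeded Mat1a in 7 of 10 livers and Ahcy exceeded Pemt in 8 of 10, so these neighbours were not ordered in each liver. The other 6 neighbouring pairs kept their order in all 10 livers. Together the 9 genes took 0.472% to 0.729% of the reads of a library, lowest in miR-181d-5p liver 5 and highest in miR-181d-5p liver 4.

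**Figure D1:**
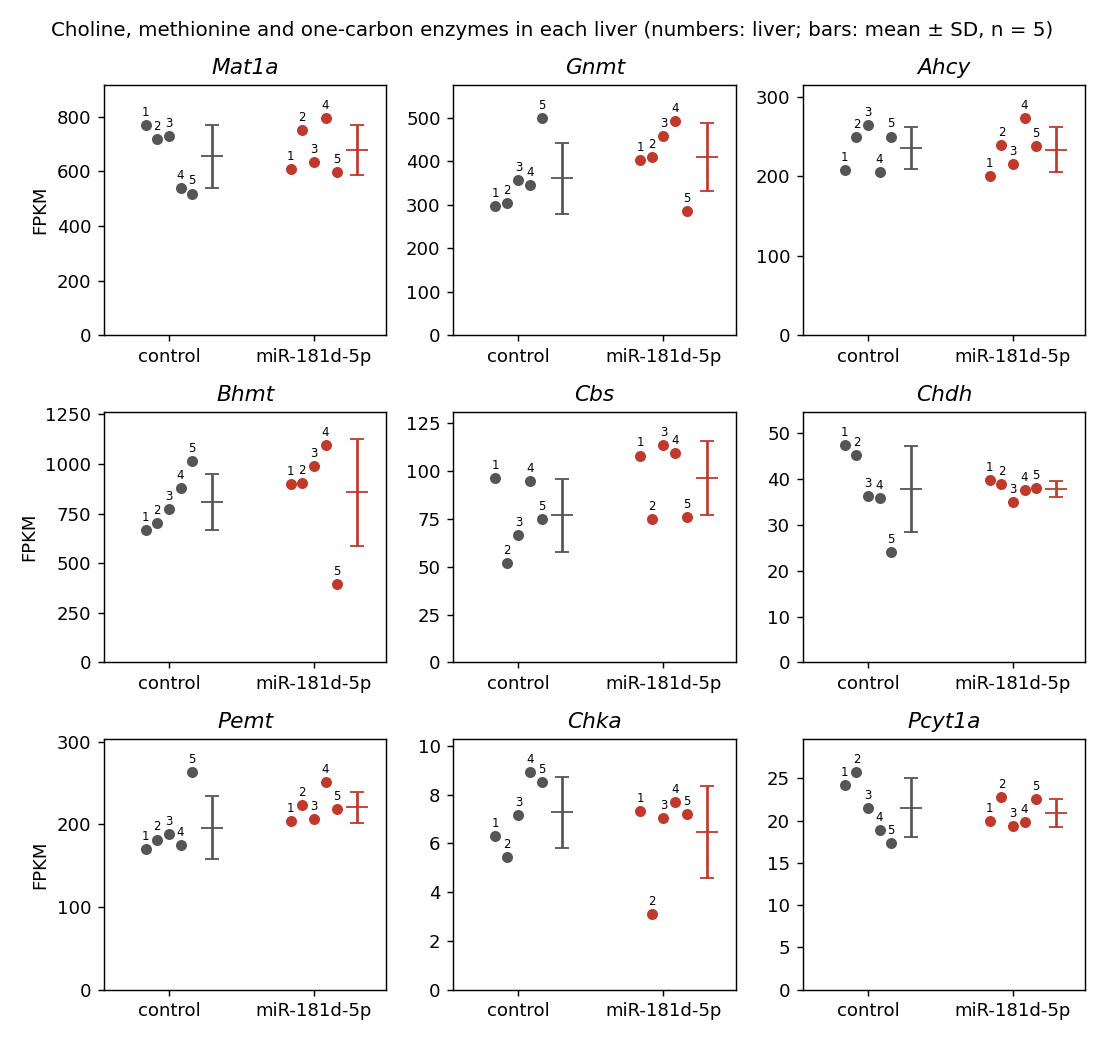
FPKM of each of the 9 genes (vertical axis, starting at 0) in control and miR-181d-5p livers. Each point is a liver with its number, and the bars give mean ± SD (n = 5). The groups overlap in all 9 panels; Bhmt in miR-181d-5p liver 5 (397 FPKM), Chka in miR-181d-5p liver 2 (3.11 FPKM) and Pemt in control liver 5 (263 FPKM) stand apart from their groups.

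The methionine cycle opens with Mat1a, the methionine adenosyltransferase of adult hepatocytes, which makes S-adenosylmethionine. Mat1a stood at 769, 717, 729.6, 538 and 519 FPKM in control livers 1 to 5 and at 607, 751, 635, 797 and 599 FPKM in miR-181d-5p livers 1 to 5. Control livers 4 and 5 were the lowest of all 10 and miR-181d-5p liver 4 the highest, and the groups overlapped. Means were 654 ± 117 and 678 ± 90.2 FPKM (SD, n = 5 each), with a log2 change of 0.06 (SE 0.13, limma adjusted p = 0.850). The 95% interval of the change reached from 85.8% to 127% of control. Here and below, such intervals come from the change in log2(FPKM + 1), so they refer to FPKM + 1. Other percentages of control are ratios of mean FPKM.

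Gnmt encodes glycine N-methyltransferase, an abundant hepatocyte enzyme that consumes surplus S-adenosylmethionine. Its values were 298, 305, 357, 345 and 501 FPKM in controls 1 to 5 and 404, 411, 458, 492 and 285 FPKM in miR-181d-5p livers 1 to 5. Livers 1 to 4 of the miR-181d-5p group were above controls 1 to 4, while control liver 5 was the highest of all 10 and miR-181d-5p liver 5 the lowest. The log2 change was 0.18 (SE 0.16, limma adjusted p = 0.594), from 361 ± 82.0 to 409.8 ± 78.6 FPKM, with a 95% interval of 89.3% to 145% of control. It was 0.31 both without control liver 5 and without miR-181d-5p liver 5 (limma adjusted p = 0.225 and 0.347), and 0.11 without miR-181d-5p liver 4.

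Ahcy encodes S-adenosylhomocysteine hydrolase, which clears the by-product of methylation and releases homocysteine. It stood at 208, 249, 264, 205 and 249.9 FPKM in controls 1 to 5 and at 200.1, 239, 215, 274 and 238 FPKM in miR-181d-5p livers 1 to 5. No liver lay far from the rest, and the highest value was 1.37 times the lowest, the smallest such range of the 9 genes. The log2 change was -0.01 (SE 0.10), with a 95% interval of 85.3% to 115% of control.

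Homocysteine is remethylated in liver by Bhmt, betaine-homocysteine methyltransferase, which takes its methyl group from the choline product betaine. Bhmt stood at 669, 704, 772, 879 and 1016 FPKM in controls 1 to 5 and at 899, 906, 988, 1097 and 397 FPKM in miR-181d-5p livers 1 to 5. Of the miR-181d-5p livers, 4 were above 4 of the controls, while miR-181d-5p liver 5 was the lowest of all 10. Means were 808 ± 141 and 857 ± 269 FPKM, with a log2 change of 0.02 (SE 0.23, limma adjusted p = 0.974). Without miR-181d-5p liver 5 the log2 change was 0.28 (limma adjusted p = 0.347). The 95% interval over all livers was 71.5% to 144% of control.

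Cbs, cystathionine beta-synthase, commits homocysteine to cysteine synthesis. It stood at 95.9, 51.8, 66.2, 94.7 and 74.5 FPKM in controls 1 to 5 and at 108, 74.6, 113, 109 and 75.6 FPKM in miR-181d-5p livers 1 to 5. In miR-181d-5p livers 1, 3 and 4 it exceeded each control liver, and livers 2 and 5 lay among the controls. With means of 76.6 ± 18.9 and 96.1 ± 19.3 FPKM it had the smallest p of the 9 genes and the largest log2 change, 0.33 (SE 0.18), and it did not pass (limma unadjusted p = 0.0798, adjusted p = 0.391). The 95% interval ran from 96.9% to 164% of control. Over 21 other settings the log2 change stayed between 0.21 (without control liver 2) and 0.42 and the adjusted p between 0.270 and 0.650.

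Chdh, the mitochondrial choline dehydrogenase, starts the oxidation of choline to betaine. It stood at 47.5, 45.4, 36.4, 35.8 and 24.0 FPKM in controls 1 to 5 and at 39.8, 38.9, 35.01, 37.7 and 38.1 FPKM in miR-181d-5p livers 1 to 5. The means nearly coincided, at 37.8 ± 9.32 and 37.9 ± 1.81 FPKM (log2 change 0.04, SE 0.15), while the control livers held both the highest and the lowest value. On the log2 scale the SD in controls was 5.53 times that in miR-181d-5p livers, the largest such ratio of the 9 genes. An SD larger in controls was common: it occurred in 5 of the 9 genes and in 76.1% of all tested genes. Exons of Chdh overlap those of Cacna1d on the opposite strand, and the strand setting of the counting was not stated in the labels.

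Pemt, phosphatidylethanolamine N-methyltransferase, makes phosphatidylcholine by methylation, a route used mainly by hepatocytes. It stood at 171, 182, 189, 175 and 263 FPKM in controls 1 to 5 and at 203, 224, 206, 251 and 218 FPKM in miR-181d-5p livers 1 to 5. Each miR-181d-5p liver was above controls 1 to 4, and control liver 5 was above each miR-181d-5p liver. The log2 change was 0.18 (SE 0.11, limma adjusted p = 0.446), from 196 ± 38.3 to 221 ± 19.0 FPKM, with a 95% interval of 96.0% to 135% of control. Without control liver 5 it was 0.30 (limma adjusted p = 0.152).

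The other route, from choline itself, starts with Chka, choline kinase alpha, and is paced by Pcyt1a, the cytidylyl-transferase that makes CDP-choline. Chka stood at 6.31, 5.45, 7.15, 8.93 and 8.496 FPKM in controls 1 to 5 and at 7.31, 3.11, 7.04, 7.69 and 7.21 FPKM in miR-181d-5p livers 1 to 5. The log2 change of -0.18 (SE 0.20, limma adjusted p = 0.683) rested on miR-181d-5p liver 2, without which it was 0.03; the 95% interval was 66.0% to 119% of control. Pcyt1a stood at 24.2, 25.8, 21.5, 18.9 and 17.4 FPKM in controls 1 to 5 and at 20.0, 22.8, 19.4, 19.9 and 22.6 FPKM in miR-181d-5p livers 1 to 5, so that controls again held both extremes. Its log2 change was -0.03 (SE 0.10), with a 95% interval of 84.0% to 114% of control.

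**Figure D2:**
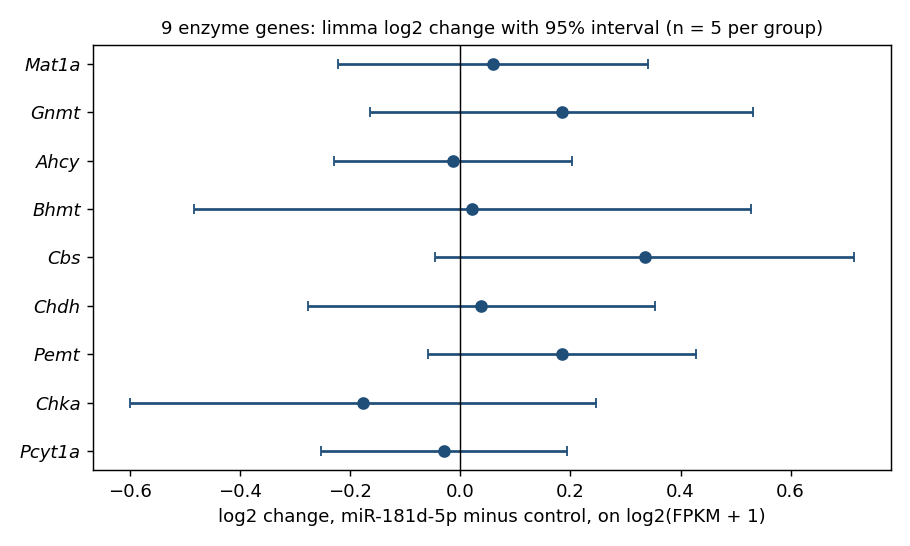
Log2 change (miR-181d-5p minus control, limma on log2(FPKM + 1), horizontal axis) of the 9 genes as points, with bars for the 95% interval. Each interval crosses 0; Cbs lies farthest to the right (0.33) and Chka farthest to the left (-0.18).

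Several of the 9 genes varied together from liver to liver. Over the 10 livers, log2 values of Bhmt and Gnmt went together (Pearson r = 0.85, Spearman rho = 0.98), as did those of Gnmt and Pemt (r = 0.73, rho = 0.71) and those of Chdh and Pcyt1a (r = 0.83, rho = 0.88). Gnmt ran against Pcyt1a (r = -0.74, rho = -0.65) and against Chdh (r = -0.66, rho = -0.60). Pemt also ran against Chdh (r = -0.67, rho = -0.47), and Chka against Pcyt1a (r = -0.62, rho = -0.82). Mat1a went with Chdh (r = 0.66, rho = 0.52) and with Pcyt1a (r = 0.65, rho = 0.55). In all, 5 pairs had r above 0.6 and 4 had r below -0.6. These are descriptions over 36 pairs in 10 livers that share library and scaling, with no test. As differences from the 10-liver mean in log2(FPKM + 1), control liver 5 had Gnmt at 0.40 and Pemt at 0.35, with Chdh at -0.62 and Mat1a at -0.34. Controls 1 and 2 showed the reverse, with Chdh at 0.34 and 0.27 and Gnmt at -0.34 and -0.31.

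The genes of these pairs differed in length, and the part of length in the relations was not tested beyond removing its trend. The lengths recovered from the FPKM were 1032, 1316 and 2071 bases for Gnmt, Pemt and Bhmt. They were 3507 bases for Mat1a, 5194 and 5891 for Pcyt1a and Chdh, and 9010 for Chka. A length trend was removed from each liver, a setting chosen after seeing the data. Bhmt and Gnmt then had r = 0.89, Chdh and Pcyt1a r = 0.66 and Gnmt and Pemt r = 0.56. Mat1a had r = 0.68 with Chdh and r = 0.73 with Pcyt1a. Of the opposed pairs, Gnmt had r = -0.33 with Pcyt1a and r = -0.33 with Chdh. Pemt and Chdh had r = -0.23, and Chka and Pcyt1a had r = -0.73. The same pairs were also computed without control liver 5 and miR-181d-5p liver 5, with no length correction. Bhmt and Gnmt then stood at r = 0.96, Gnmt and Pemt at 0.90 and Chdh and Pcyt1a at 0.85. Gnmt and Pcyt1a stood at -0.67, Gnmt and Chdh at -0.68 and Chka and Pcyt1a at -0.61. Mat1a stood at 0.43 with Chdh and at 0.59 with Pcyt1a, and Pemt at -0.41 with Chdh.

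**Figure D3:**
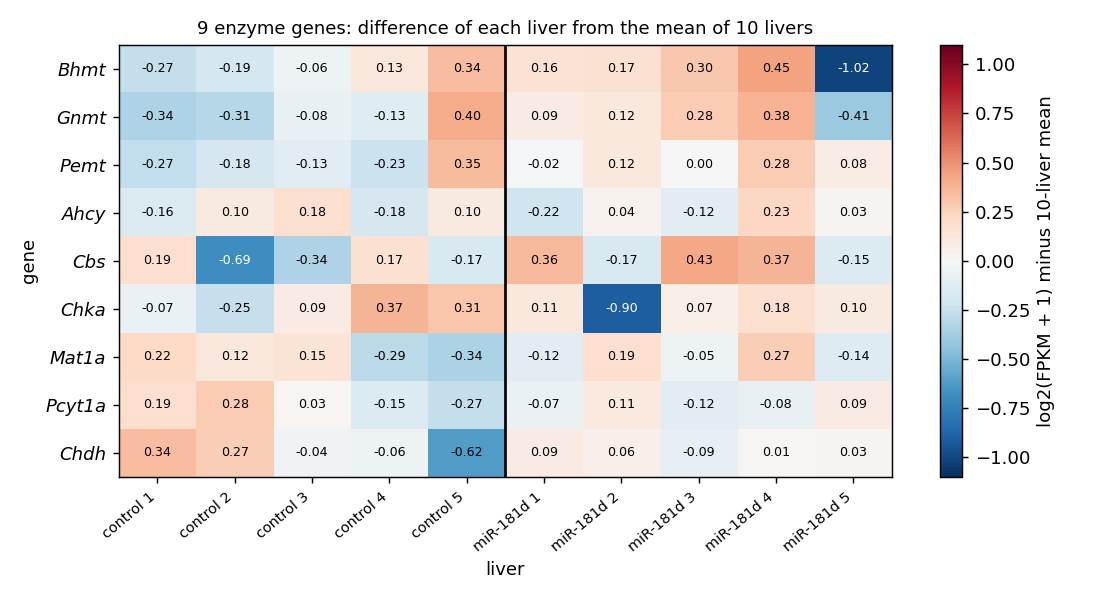
Difference of each liver (columns, the black line divides control from miR-181d-5p) from the mean of all 10 livers in log2(FPKM + 1), for each of the 9 genes (rows), as colour and number. Control liver 5 is high in Gnmt (0.40) and low in Chdh (-0.62), and miR-181d-5p liver 5 is low in Bhmt (-1.02).

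The balance between alternative enzymes or routes was compared within each liver as a ratio of FPKM, for 3 pairs. Mat1a was set against Mat2a, the methionine adenosyltransferase of extrahepatic and growing cells, whose own means were 78.0 ± 8.79 and 83.6 ± 6.87 FPKM (log2 change 0.10, limma adjusted p = 0.589). The ratio ran from 7.24 to 9.61 in controls and from 6.41 to 9.36 in miR-181d-5p livers. The mean log2 ratio was 3.06 ± 0.15 and 3.01 ± 0.22 (SD, n = 5 each), a difference of -0.04 (two-sided exact permutation p = 0.714, adjusted p over the 3 ratios = 0.738).

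Pemt over Pcyt1a sets the methylation route to phosphatidylcholine against the route from choline. It ran from 7.05 to 15.2 in controls, with control liver 5 highest and the other controls at or below 9.29, and from 9.67 to 12.6 in miR-181d-5p livers. The log2 difference of 0.22 did not pass (exact permutation p = 0.333, adjusted p over the 3 ratios = 0.738). Without control liver 5 the miR-181d-5p livers all lay above the remaining controls, and the log2 difference was 0.40. The exact permutation p adjusted over the 3 ratios was then 0.0476. Before adjustment, the p was the smallest this test can give with those livers. Control liver 5 already stood apart in this ratio, so its removal gives no independent support. With any other liver left out, the exact permutation p adjusted over the 3 ratios was 0.5 or higher. Pemt is the shorter gene of the pair, and the length trend described above was not removed from this ratio.

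Bhmt over Mtr sets betaine against folate as the methyl source for homocysteine; Mtr, methionine synthase, stood at 1.83 ± 0.3805 and 1.65 ± 0.0684 FPKM (log2 change -0.09, limma adjusted p = 0.667). The FPKM of Bhmt was 307 to 707 times that of Mtr in controls and 245 to 706 times in miR-181d-5p livers (log2 difference 0.15, exact permutation p = 0.738, the same after adjustment). The log2 difference was 0.40 without miR-181d-5p liver 5, 0.32 without control liver 5 and 0.016 without control liver 1.

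**Figure D4:**
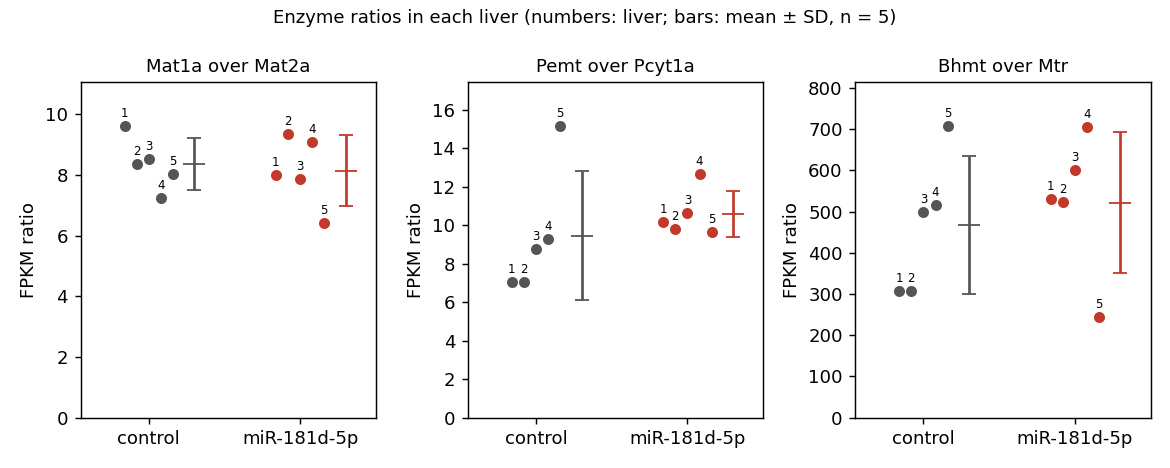
FPKM ratio within each liver (vertical axis, starting at 0) of Mat1a over Mat2a, Pemt over Pcyt1a and Bhmt over Mtr. Points are livers with their numbers and bars give mean ± SD (n = 5). Groups overlap in all 3 panels, and control liver 5 is highest for Pemt over Pcyt1a (15.2).

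None of the close relatives of the 9 enzymes passed the test. Bhmt2, which remethylates homocysteine with S-methylmethionine and neighbours Bhmt, stood at 73.0 ± 8.03 FPKM in controls and 81.9 ± 8.501 FPKM in miR-181d-5p livers (log2 change 0.16, limma adjusted p = 0.411). Chkb, the second choline kinase, stood at 20.6 ± 3.50 and 20.5 ± 1.32 FPKM, above the FPKM of Chka in each group mean, an order that depends on the lengths used. Pcyt1b, the second cytidylyl-transferase, had 0.177 ± 0.0345 and 0.0995 ± 0.0595 FPKM and was too low to be tested.

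Around the 9 enzymes, 88 of 94 genes in 8 further lists were tested; 56 had a log2 change above 0 and 32 below, with a median of 0.04, and none passed. At an unadjusted p under 0.05 there were 8 higher and 3 lower, against 5.04% higher and 9.63% lower of all tested genes. The groups did not overlap in 4 of the 88 genes, against 2.47% of all tested genes. The gene with the smallest p was Pcyt2, the cytidylyl-transferase of a route to phosphatidylethanolamine, the substrate of Pemt. Pcyt2 stood at 140.0, 112, 136, 135 and 132 FPKM in controls 1 to 5 and at 152, 153, 155, 165 and 147 FPKM in miR-181d-5p livers 1 to 5. Each miR-181d-5p liver was above each control, with a log2 change of 0.24 (SE 0.07, limma unadjusted p = 0.00554, adjusted p = 0.240). In the same list of phospholipid synthesis 7 of 11 lay above 0, with a median of 0.01; Lpcat3 and Selenoi had log2 changes of 0.09 and 0.12.

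Of the choline transport genes, 5 of 7 tested lay below 0, with a median log2 change of -0.12. The choline transporter-like genes Slc44a2 and Slc44a4 stood at 85.7% and 62.4% of their control means, the latter at under 1.5 FPKM in each liver. Choline release from phospholipid was below 0 in 8 of 11 genes (median -0.08), among them the phospholipases Pld1 (log2 change -0.31) and Pld2 (-0.15). Pnpla7, a lysophospholipase, was at 108% of control (limma adjusted p = 0.403). Its groups barely separated, with the highest control at 28.42 FPKM and the lowest miR-181d-5p liver at 28.44 FPKM.

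Oxidation of choline and betaine beyond Chdh lay above 0 in 5 of 5 genes, with a median log2 change of 0.09. Sardh, the mitochondrial sarcosine dehydrogenase, stood at 100.01 ± 6.10 FPKM in controls and 115 ± 12.9 FPKM in miR-181d-5p livers. Aldh7a1, which oxidises betaine aldehyde, stood at 90.4 ± 5.80 and 100.8 ± 5.78 FPKM, and Pipox, a peroxisomal sarcosine oxidase, at 106% of control. Sardh and Aldh7a1 had unadjusted p of 0.0323 and 0.0354 by limma and adjusted p of 0.311 and 0.315.

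Downstream of Cbs, the transsulfuration and taurine list had 11 of 12 genes above 0, with a median of 0.14 and no gene at an unadjusted p under 0.05. Csad, which makes hypotaurine, stood at 36.3 ± 5.39 and 46.2 ± 12.6 FPKM (log2 change 0.32, limma adjusted p = 0.365). Csad in miR-181d-5p liver 5 was at 66.3 FPKM and in the other 4 at 35.2 to 50.4 FPKM, and without that liver the log2 change was 0.18. The sulfurtransferases Tst and Mpst stood at 115% and 113% of control. In the methionine cycle list itself 4 of 9 lay above 0; Adk, the adenosine kinase that removes a product of Ahcy, had a log2 change of 0.08, and Mtrr, which reactivates methionine synthase, had -0.08.

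Among methyltransferases that spend S-adenosylmethionine, 7 of 11 lay above 0 (median 0.11). Inmt, an indolethylamine methyltransferase, stood at 142 ± 42.4 and 206 ± 69.8 FPKM (log2 change 0.52, SE 0.24, limma adjusted p = 0.338), and its log2 change was 0.34 without control liver 4. Coq3, a methyltransferase of coenzyme Q synthesis, was at 115% of control (limma adjusted p = 0.340). Its groups barely separated, with the highest control at 5.23 FPKM and the lowest miR-181d-5p liver at 5.27 FPKM. Folate one-carbon genes lay above 0 in 17 of 22 (median 0.08), led by Slc46a1, the proton-coupled folate transporter, at 14.5 ± 1.68 and 17.4 ± 1.73 FPKM (log2 change 0.25, limma adjusted p = 0.260). Shmt2 and Amt, both mitochondrial enzymes that charge folate with 1-carbon units, were at 111% and 118% of control.

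**Figure D5:**
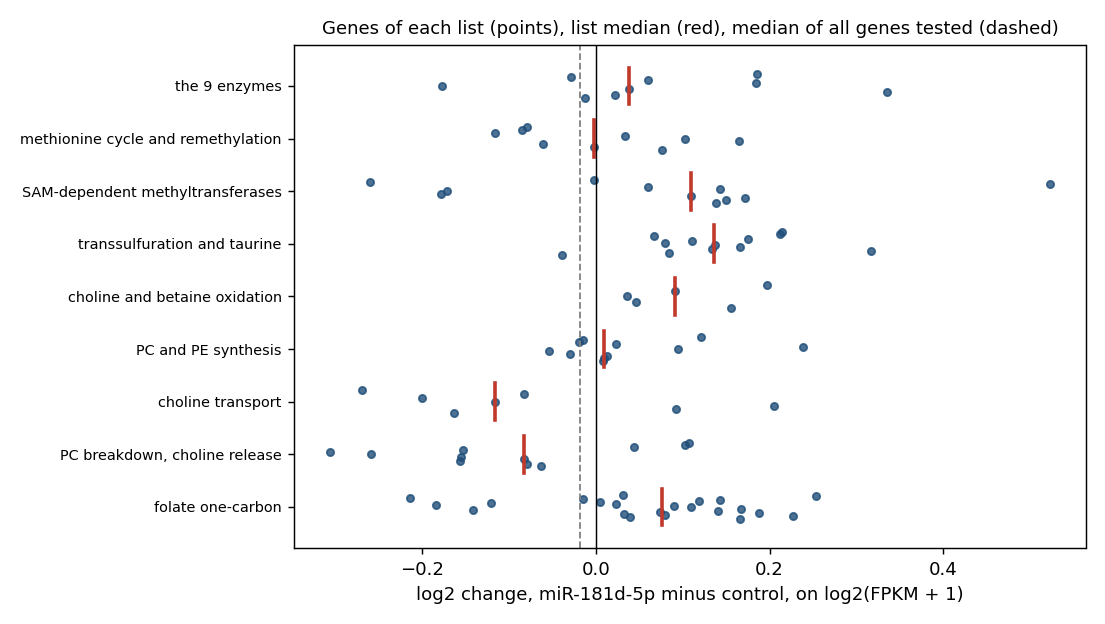
Log2 change (miR-181d-5p minus control, horizontal axis) of each tested gene, by list (rows); the red bar is the list's median and the dashed line the median of all tested genes (-0.02). PC is phosphatidylcholine, PE phosphatidylethanolamine and SAM S-adenosylmethionine. List medians run from -0.12 (choline transport) to 0.14 (transsulfuration and taurine).

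On mm10 the 9 genes lie as follows, by GENCODE vM21. Mat1a spans 41105035 to 41124412 and Chdh 30009023 to 30040527 on chromosome 14. Gnmt spans 46725664 to 46729168 and Cbs 31608894 to 31637238 on chromosome 17. Ahcy spans 155059310 to 155074497 on chromosome 2, Bhmt 93616675 to 93637961 on chromosome 13, and Pemt 59970614 to 60046489 on chromosome 11. Chka spans 3851773 to 3894369 on chromosome 19, and Pcyt1a 32430921 to 32475070 on chromosome 16. Antisense genes overlap exons of Bhmt, Chka and Pcyt1a, Slc51a overlaps exons of Pcyt1a on the opposite strand, and the annotation holds a pseudogene of Bhmt, so reads of these genes may be shared.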

How the data were processed

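Gene expression was measured by RNA-seq in 10 livers. Total RNA (mirVana) went into TruSeq Stranded mRNA libraries, per the labels' protocols. The values are FPKM in a table of all 10 livers that the authors deposited. The submitters' processing notes name the build mm10 and, without roles, HISAT2 2.2.1 and HTSeq 0.13.5, beside Trimmomatic 0.38, DESeq2 1.18.1, FastQC 0.11.9 and R 3.4.1. The group and number in each column name gave its sample.

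Whole reads were worked out by searching gene lengths that make each FPKM a whole number within 0.02 reads, which succeeded for 17273 of 17274 genes. These read totals and lengths are inferred rather than deposited, and 206 of the lengths equal those of GENCODE vM21. The unit remains FPKM, so limma 3.58.1 in R 4.3.3 was run on log2(FPKM + 1) of the genes whose mean over all livers reached 0.5 FPKM (lmFit, eBayes with a trend, group only, threshold 0.05). Enzyme ratios used an exact permutation test over livers. The scripts were tested on simulated data. No 2 livers of a group agreed within counting noise (lowest chi-square per degree of freedom 9.51). Other steps ran in Python 3.11.15 with scipy 1.17.1, and figures in matplotlib 3.10.9.

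The 9 genes and the lists were chosen with earlier results of these data known. Named genes are the 9 enzymes, 5 relatives or branch partners, up to 3 genes with the smallest p in each pathway list, and the gene with the smallest p in each marker list; some genes that this rule selects are not reported here. Alternatives were another pseudocount, filters, scalings, array weights, robust fitting, a replicate block, leaving out each liver and voom on recovered reads. Voom with quality weights and removal of a gene length trend (lowess, span 0.3) were added after seeing the data.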

Additional observations from a re-analysis of the deposited data

Results flagged for a closer look

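In a group of 5 livers, a value was singled out when its gap to the nearest other liver exceeded 0.71 of the group's range. Over 88 groups of values this gave 5, where chance gives about 1 in 20 groups. Bhmt in miR-181d-5p liver 5 stood at 397 FPKM, the next liver being at 899 FPKM. Chka in miR-181d-5p liver 2 stood at 3.11 FPKM, next to 7.04 FPKM. Pemt in control liver 5 stood at 263 FPKM, next to 189 FPKM, and the ratio of Pemt over Pcyt1a in the same liver was 15.2, next to 9.29. Slc44a4 in control liver 4 stood at 1.42 FPKM, next to 0.778 FPKM. The causes were not tested.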

How the results depend on the processing

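None of the 9 enzymes and none of the other listed pathway genes had an adjusted p under 0.05 in any of 21 alternatives. Over all genes, limma called 1 with the replicate block, 2 by voom with quality weights on recovered reads, and 0 to 3 with 1 liver left out (3 without control liver 1, and 1 each without control liver 5 and without miR-181d-5p liver 3); the cause was not tested. Same-numbered livers did not deviate together (r from -0.28 to 0.01), so the replicate block pairs livers by number only. Log2 changes near 0 changed sign in places: Bhmt was at -0.0061 with FPKM rescaled to a common sum, Mtr at 0.000418 with quantile normalization and at 0.012 with a gene length trend removed, Pcyt1a at 0.024 and Chkb at -0.020 with that trend removed, and Chkb also at -0.017 rescaled, -0.034 with array weights and -0.029 by voom with quality weights. With 1 liver left out, log2 changes ran from -0.019 to 0.12 for Mat1a, -0.087 to 0.28 for Bhmt, -0.11 to 0.13 for Chdh, -0.26 to 0.026 for Chka, -0.099 to 0.037 for Pcyt1a, -0.073 to 0.040 for Ahcy and -0.060 to 0.081 for Chkb. Gnmt, Pemt and Cbs stayed above 0 in all 21. The log2 difference of Mat1a over Mat2a ran from -0.097 to 0.039 with 1 liver left out, and that of Pemt over Pcyt1a from 0.12 to 0.40, the latter without control liver 5; that of Bhmt over Mtr ran from 0.016 to 0.40. Leaving out control liver 2 took the log2 change of Tst to 0.13, of Mpst to 0.12 and of Coq3 to 0.11, leaving out control liver 5 took Mat2a to 0.037 and Selenoi to 0.036, and leaving out control liver 4 took Slc44a4 to -0.17. Counting 6mers, which can only keep or raise the number, gave seed matches in 3 of the 9 genes, against 35.5% of the tested genes. With 1 liver left out or another setting, genes at an unadjusted p under 0.05 numbered 347 to 997 higher and 674 to 1794 lower, against 607 and 1161. Each value of the 9 enzymes had 578 or more reads behind it, and each group had 5 livers. The parts of read depth and group size in the precision were not tested.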
